A study of Mus musculus with 11 samples.

Results

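The genes described here encode hormones and secretory proteins of enteroendocrine cells, the scattered hormone-producing cells of the gut lining. They are 10 genes chosen by name, out of 18820 genes measured on the arrays: Cck, Nts, Sct, Gcg, Pyy, Insl5, Sst, Tph1, Chga and Chgb. A gene was read from the probe set (a group of probes for 1 transcript) that the platform annotation gives to that gene alone, and each of the 10 genes had 1 such probe set. RNA came from mucosal scrapings of the colon of male C57BL/6J mice aged 12 weeks, with 1 array per mouse. All mice ate a low-fat diet for 2 weeks of adaptation and were then spread over the diets by body weight. For the next 10 days 5 control mice stayed on it, and 6 inulin mice ate the same diet with 10% of its weight moved from corn starch to inulin, a plant fructan that mouse enzymes do not digest and gut bacteria ferment. For gut hormones the last meal matters, and the labels do not agree on it: one text has the colon taken after an overnight fast, another has each mouse given 1 g of its diet after the fast and killed 4 h later. The labels do not say which stretch of the colon was scraped, nor do they name a cage or an array batch.

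Enteroendocrine cells store peptide hormones and serotonin in dense granules and release them when nutrients, bile acids or bacterial products reach their surface. The peptides are cut from longer precursors in the granule and then act on nearby nerves, on the pancreas and gallbladder, on appetite and on gut movement. Which hormones a cell makes depends on its place along the gut: cholecystokinin, secretin and neurotensin are typical of the small intestine, whereas L cells with proglucagon, peptide YY and insulin-like peptide 5 are plentiful in the colon.

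Of the 10 genes 1 rose under inulin and 0 fell, at an adjusted p under 0.05 in limma. The gene was Cck. Over all 18820 genes 0.0903% passed that test, 0.0531% higher and 0.0372% lower. The 10 genes were chosen with earlier results of these data known, so setting them beside these shares is a description and not a test. The mean was higher under inulin in 5 of the 10 genes (Nts, Cck, Gcg, Sst and Sct), against 51.4% of all genes. Those 5 genes also had an unadjusted p under 0.05, which 13.5% of all genes had. The other 5 (Pyy, Tph1, Chgb, Insl5 and Chga) had differences between -0.05 and -0.0044 on the log2 scale. The median difference of the 10 genes was 0.11, against 0.0039 over all genes. Array values are log2 expression values, and because probes differ in brightness the level of 1 gene is not set against that of another. The arrays' quartiles and a percentile of the probe sets are used only to say that a value lies at the low end of the arrays, not how much RNA a gene had.

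**Figure D1:**
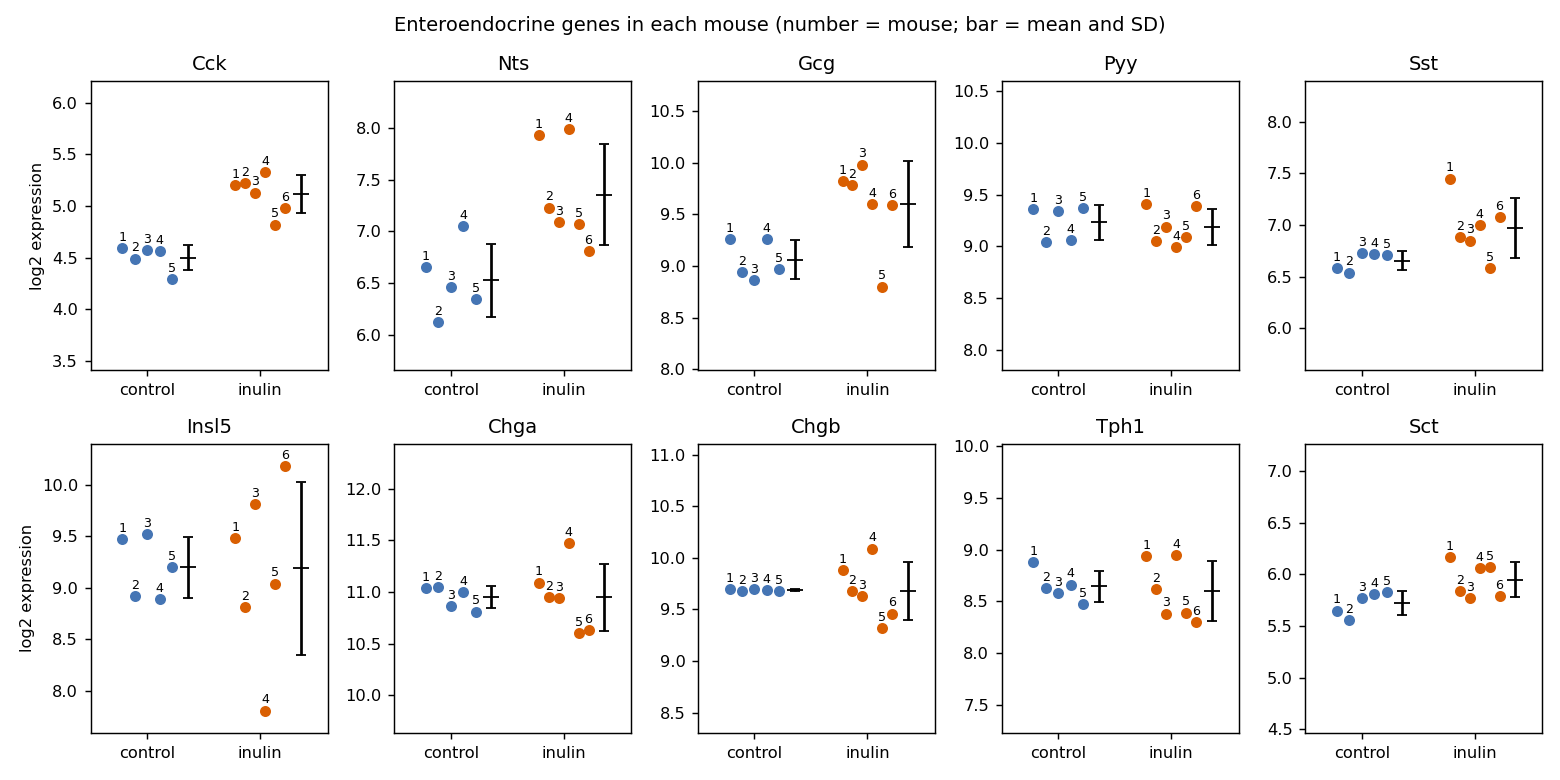
Log2 expression (vertical axis, each panel spanning the same number of log2 units) of the 10 enteroendocrine genes in every mouse, control in blue and inulin in orange; the number beside a point is the mouse, and the black bar is the mean with its SD. For Cck the 6 inulin mice, from 4.82 to 5.33, all lie above the 5 controls, from 4.29 to 4.59.

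**Figure D2:**
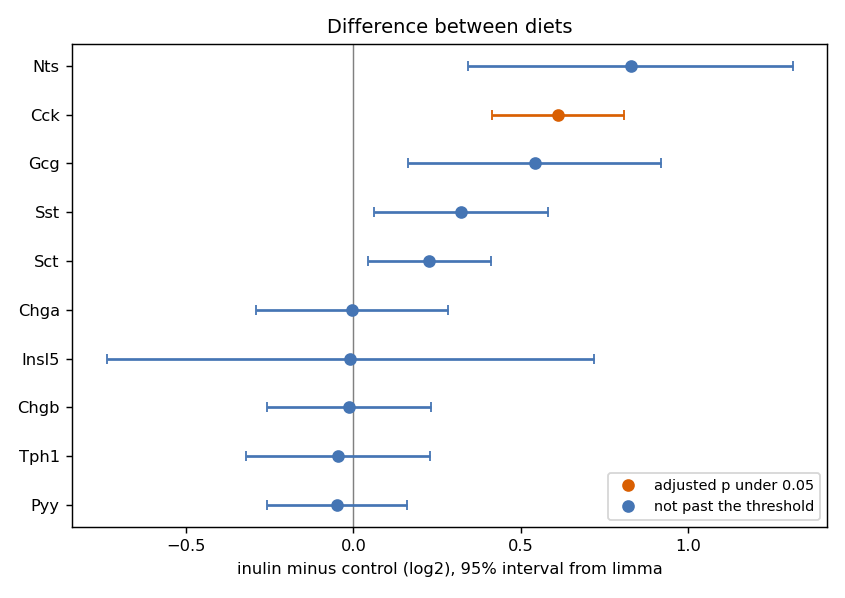
Inulin minus control on the log2 scale for each gene (horizontal axis) with the 95% interval from limma, ordered by size. Cck, in orange, is the gene past the threshold, and the intervals of Nts, Gcg, Sst and Sct lie above 0.

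The promoters of the 4 genes with the largest differences are shown so that the letters these genes share, and those they do not, can be seen beside their values. Each is the 250 bases before the gene's start in RefSeq, build GRCm38.p6, on the minus strand and written 5′ to 3′ along the gene. The Pyy, Insl5 and Tph1 genes have more than 1 start in the table. Capitals mark matches, on either strand, to motifs that were searched for by their letters: the cAMP response element TGACGTCA and its variants TGCGTCA and TGACATCA, the AP-1 site TGANTCA, the E-boxes CACGTG and CAGCTG, and the TATA box TATAAA. The Cck window is chr9:121495695-121495944, the Nts window chr10:102490419-102490668, the Gcg window chr2:62483654-62483903 and the Sst window chr16:23890845-23891094.
Cck: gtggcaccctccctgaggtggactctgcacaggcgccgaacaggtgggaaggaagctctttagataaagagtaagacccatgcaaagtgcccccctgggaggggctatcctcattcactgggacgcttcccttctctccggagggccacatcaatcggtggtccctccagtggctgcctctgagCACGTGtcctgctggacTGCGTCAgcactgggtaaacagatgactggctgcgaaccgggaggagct
Nts: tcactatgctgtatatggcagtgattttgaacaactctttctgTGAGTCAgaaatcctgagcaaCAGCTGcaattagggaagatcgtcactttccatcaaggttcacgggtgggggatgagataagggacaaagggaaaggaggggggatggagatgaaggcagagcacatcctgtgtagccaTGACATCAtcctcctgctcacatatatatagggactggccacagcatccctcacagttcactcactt
Gcg: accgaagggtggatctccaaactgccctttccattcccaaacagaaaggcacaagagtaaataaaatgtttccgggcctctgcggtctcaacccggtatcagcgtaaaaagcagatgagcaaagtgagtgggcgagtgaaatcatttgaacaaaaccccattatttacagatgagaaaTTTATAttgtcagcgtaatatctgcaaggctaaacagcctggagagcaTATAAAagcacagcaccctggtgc
Sst: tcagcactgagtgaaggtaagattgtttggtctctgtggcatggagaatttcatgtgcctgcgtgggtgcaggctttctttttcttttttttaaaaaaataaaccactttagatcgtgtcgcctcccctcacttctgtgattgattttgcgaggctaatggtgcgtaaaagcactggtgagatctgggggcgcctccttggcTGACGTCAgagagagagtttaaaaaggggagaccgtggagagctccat

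The Cck window held the variant element TGCGTCA from position -49, counted back from the start, and the E-box CACGTG from -66. The Nts window held TGACATCA from -67, an AP-1 match from -207 and CAGCTG from -186. The Sst window held the full element TGACGTCA from -48. The Gcg window held none of the cAMP element letters and had TATAAA from -24 and, on the opposite strand, from -72. Among 32851 windows of the same length in the RefSeq table, TGACGTCA was present in 1.55%, TGCGTCA in 1.75%, TGACATCA in 2.93%, TGANTCA in 6.75%, CACGTG in 6.02%, CAGCTG in 13% and TATAAA in 12.4%. Among the windows not printed, Chgb held TGACGTCA from -72 and the window of the other Tph1 start held TGCGTCA from -250, both genes with differences near 0. CAGCTG was in the windows of Chga and Sct, and TATAAA in those of Sct and Insl5. Other variants of the cAMP element were not searched for. The Chga window holds such a variant, TGACGTAA, and Chga also had a difference near 0. No match was found in the Pyy windows. These are letter matches only, and no binding was measured.

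Cck encodes cholecystokinin, the peptide of I cells that empties the gallbladder, drives pancreatic enzyme release and signals satiety. Control mice 1 to 5 had Cck at 4.59, 4.49, 4.57, 4.56 and 4.29, and inulin mice 1 to 6 at 5.20, 5.22, 5.13, 5.33, 4.82 and 4.98. Every inulin mouse was above every control mouse, with inulin 4 highest and inulin 5 nearest to the controls. Cck was the only one of the 10 genes whose groups lay apart, and over all genes 2.18% did so, 1.01% with every inulin mouse above and 1.16% with every inulin mouse below. The mean went from 4.50 ± 0.12 (SD, n = 5) to 5.11 ± 0.19 (SD, n = 6), a difference of 0.61 ± 0.091 (SE) or 1.53-fold, with a 95% interval from 1.33-fold to 1.75-fold. The limma adjusted p was 0.025 over all genes, and the two-sided exact permutation p over all divisions of the mice was 0.0043, unadjusted. The Cck values were at the low end of the arrays: their mean over the mice, 4.84, lay below the 40th percentile of the probe sets (4.93), though above the arrays' lower quartiles of 3.72 to 3.79.

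The size of the Cck difference moved little while its adjusted p often crossed the threshold. Leaving out 1 mouse at a time gave differences from 0.56 to 0.67, but Cck did not pass without control 1, 2, 3 or 5 or inulin 1, 2 or 3 (adjusted p from 0.059 to 0.085). It passed without control 4 and without inulin 4, 5 or 6, with an adjusted p of 0.0029 without inulin 5. Over all genes 38, 25, 98 and 50 passed in those fits, against 17 with all mice. In the fits where Cck did not pass on leaving out 1 mouse, 7 to 11 of all genes did. Cck also did not pass with exocrine pancreas and islet markers as a covariate (0.63, adjusted p 0.081), with fat cell markers (0.61, 0.078) or with quantile normalisation (0.59, 0.053).

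**Figure D3:**
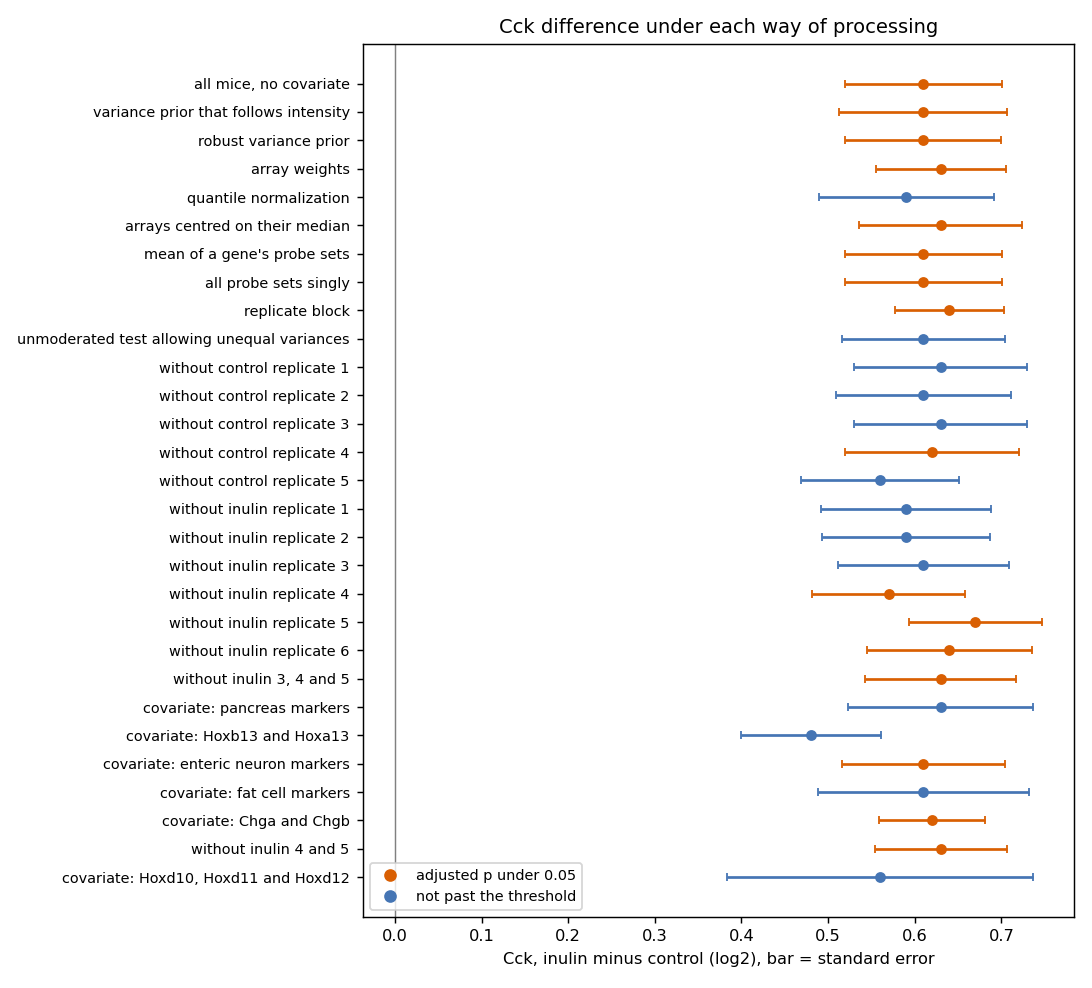
Cck difference, inulin minus control on the log2 scale (horizontal axis, bars are standard errors), under each way of processing or each set of mice named on the left. The differences run from 0.48 to 0.67, all above 0, and orange points are those with an adjusted p under 0.05.

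Nts encodes the precursor of neurotensin, a peptide of N cells that slows gut movement and aids fat absorption. Controls 1 to 5 had Nts at 6.65, 6.12, 6.46, 7.05 and 6.34, and inulin mice 1 to 6 at 7.93, 7.23, 7.09, 7.99, 7.07 and 6.81. Every inulin mouse but inulin 6 was above every control; inulin 6 was below control 4, so the groups overlapped. The mean was 6.53 ± 0.35 (SD, n = 5) in control and 7.35 ± 0.49 (SD, n = 6) under inulin. The difference of 0.83 ± 0.22 (SE), 1.77-fold with an interval from 1.27-fold to 2.48-fold, was the largest of the 10 genes but did not pass (limma adjusted p 0.16; exact permutation p 0.011, two-sided and unadjusted). With Hoxb13 and Hoxa13, markers of the distal colon, as a covariate it was 0.46 ± 0.17 (SE).

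Sct encodes secretin, the peptide of S cells that evokes bicarbonate secretion. Controls 1 to 5 had Sct at 5.65, 5.56, 5.77, 5.81 and 5.83, and inulin mice 1 to 6 at 6.17, 5.84, 5.77, 6.06, 6.07 and 5.79. Inulin 1, 2, 4 and 5 were above every control, while inulin 3 and 6 lay among them. The difference was 0.23 ± 0.085 (SE), 1.17-fold, and did not pass (limma adjusted p 0.27; exact permutation p 0.054, two-sided and unadjusted). With fat cell markers as a covariate it was 0.14 (adjusted p 0.63).

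Gcg encodes proglucagon, from which L cells cut the glucagon-like peptides that support insulin release and the growth of the gut lining. Controls 1 to 5 had Gcg at 9.26, 8.94, 8.86, 9.26 and 8.97, and inulin mice 1 to 6 at 9.82, 9.78, 9.98, 9.60, 8.80 and 9.59. Inulin 5 was below every control, and the other inulin mice were above every control. The difference was 0.54 ± 0.17 (SE), 1.45-fold with an interval from 1.12-fold to 1.89-fold, and did not pass (limma adjusted p 0.21; exact permutation p 0.032, two-sided and unadjusted). The call rested on inulin 5: without that mouse the difference was 0.70 ± 0.099 (SE) with an adjusted p of 0.011. Gcg also passed without inulin 4 and 5 (0.74, adjusted p 0.015), without inulin 3, 4 and 5 (0.68, adjusted p 0.046) and with array weights (0.65, adjusted p 0.033). Over all genes 98, 91, 33 and 245 passed in those fits, against 17 with all mice and no weights.

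Pancreatic islets also make proglucagon, somatostatin and granins, so islet and pancreas markers were read beside these genes. Ins2, which encodes insulin, was between 4.11 and 4.26 in control and between 4.19 and 4.50 under inulin. The mean of 9 measured islet markers (of 10 listed) lay between 4.30 and 4.41 in control and 4.28 and 4.50 under inulin, and 4 of the 9 had both means below the arrays' lower quartile. Exocrine pancreas markers (12 measured of 15) had means from 5.55 to 6.90 in control and from 5.60 to 10.30 under inulin, the top value being inulin 3, where Ctrb1 reached 11.80. The list did not move as 1: the mean was higher under inulin in 10 of the 12 and lower in Clps (-0.69 ± 0.25 SE, the smallest p of the list, limma adjusted p 0.26) and Sycn (-0.23 ± 0.099 SE, adjusted p 0.33), the colipase and syncollin genes. In control mice Clps was at 10.31 ± 0.12 (SD) and Sycn at 12.63 ± 0.11, and Ctrb1 at 5.62 ± 1.13. Whether Clps and Sycn report pancreatic RNA in this tissue was not tested, and both are in the marker mean and the covariate. In inulin 3 Gcg (9.98) and Ins2 (4.50) were the highest of all mice, while Sst (6.85) was below that of every inulin mouse but inulin 5. The islet marker mean was not highest in inulin 3: it was 4.39, below control 2 (4.41), inulin 5 (4.43) and inulin 6 (4.50). That mean includes Ppy, at 8.61 in control and 8.54 under inulin. Over deviations from the diet means it had a Pearson r of 0.54 with Insl5 and -0.31 with Gcg. How far the islet marker mean follows islet RNA in this tissue was not tested. With both marker sets as a covariate the Gcg difference was 0.56 (adjusted p 0.36), without inulin 3 it was 0.46 (adjusted p 0.28), and with fat cell markers as a covariate it was 0.83 (adjusted p 0.14).

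Pyy and Insl5, the other L cell genes, had differences near 0. Pyy, the gene of peptide YY, which restrains appetite and slows transit, was at 9.36, 9.04, 9.34, 9.06 and 9.37 in controls 1 to 5 and at 9.41, 9.05, 9.19, 8.99, 9.09 and 9.39 in inulin mice 1 to 6. The values interleaved, and the difference was -0.05 ± 0.097 (SE), a fold of 0.967 with an interval from 0.836 to 1.12 (limma adjusted p 0.87). It was 0.14 with fat cell markers as a covariate (adjusted p 0.59) and 0.06 with Hoxb13 and Hoxa13 (adjusted p 0.85).

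Insl5, the gene of insulin-like peptide 5, an L cell hormone made mainly in the distal colon, had the widest range of the 10 genes among inulin mice. Controls 1 to 5 had Insl5 at 9.47, 8.92, 9.52, 8.89 and 9.20, and inulin mice 1 to 6 at 9.48, 8.81, 9.81, 7.81, 9.04 and 10.18. Inulin mice held both ends, with inulin 6 and inulin 3 above every control and inulin 4 and inulin 2 below every control. The SD was 0.29 in control and 0.84 under inulin. The difference was -0.01 ± 0.34 (SE) with an interval from 0.600-fold to 1.64-fold, the widest of the 10 genes (limma adjusted p 0.99). It was 0.61 ± 0.21 (SE) with Hoxb13 and Hoxa13 as a covariate (adjusted p 0.27), 0.78 with fat cell markers (adjusted p 0.295) and 0.27 without inulin 4 (adjusted p 0.68), none past the threshold.

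Sst encodes somatostatin, the D cell peptide that inhibits most other gut hormones. Controls 1 to 5 had Sst at 6.58, 6.54, 6.73, 6.72 and 6.71, and inulin mice 1 to 6 at 7.45, 6.88, 6.85, 7.0, 6.58 and 7.08. Inulin 5 lay among the controls and the other inulin mice above them, with inulin 1 highest. The difference was 0.32 ± 0.12 (SE), 1.25-fold, and did not pass (limma adjusted p 0.27; exact permutation p 0.028, two-sided and unadjusted). With fat cell markers as a covariate it was 0.52 (adjusted p 0.17).

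Tph1 encodes the enzyme that starts serotonin synthesis in enterochromaffin cells. Controls 1 to 5 had Tph1 at 8.88, 8.63, 8.58, 8.66 and 8.47, and inulin mice 1 to 6 at 8.94, 8.62, 8.38, 8.95, 8.39 and 8.30. Inulin 1 and 4 were above every control and inulin 3, 5 and 6 below every control. The difference was -0.05 ± 0.13 (SE), with an interval from 0.800-fold to 1.17-fold (limma adjusted p 0.91).

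Chga and Chgb encode chromogranin A and B, granule proteins shared by nearly all enteroendocrine cells. Chga was at 11.04, 11.05, 10.86, 11 and 10.81 in controls 1 to 5 and at 11.09, 10.95, 10.94, 11.47, 10.60 and 10.63 in inulin mice 1 to 6. Chgb was at 9.70, 9.68, 9.70, 9.69 and 9.68 in control, a range of 0.02, and at 9.88, 9.68, 9.63, 10.09, 9.32 and 9.46 under inulin. In both genes inulin 4 was highest and inulin 5 lowest of all 11 mice. The differences were -0.0044 ± 0.13 (SE) for Chga, with an interval from 0.817-fold to 1.22-fold, and -0.01 ± 0.11 (SE) for Chgb, from 0.836-fold to 1.17-fold (limma adjusted p 0.99 and 0.97). In bulk scrapings, more cells of a type and more RNA per cell cannot be told apart for any of the 10 genes.

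Since Chga and Chgb are granule genes of nearly all these cells, the other genes were also fitted with the mean of Chga and Chgb as a covariate, an alternative chosen after seeing the data. Cck then differed by 0.62 ± 0.061 (SE) with a limma adjusted p of 0.0031. Nts differed by 0.84 ± 0.16 (SE) and passed, with an adjusted p of 0.039. Over all 18820 genes 96 passed in this fit, against 17 without the covariate. Gcg (0.55), Sst (0.32) and Sct (0.23) kept differences close to those without the covariate and did not pass, with adjusted p of 0.14, 0.21 and 0.24.

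Within a diet, the 10 genes did not vary as 1 block. Each mouse's deviation from its diet's mean was taken for each gene, and Pearson's r was computed over the 11 mice, as a description of these mice with no test. Chga, Chgb, Tph1, Cck and Nts went together: r was 0.93 for Chga with Chgb, 0.84 for Chga with Tph1, 0.84 for Cck with Chga, 0.81 for Cck with Chgb, 0.84 for Nts with Tph1 and 0.64 for Cck with Nts. Pyy and Insl5 formed another pair (r = 0.76), and Insl5 ran against Chga (r = -0.67). Gcg, which shares the L cell with Pyy and Insl5, had r of 0.16 with Pyy, 0.15 with Insl5 and 0.66 with Cck. The 45 pairs share the same 11 mice and arrays, and inulin 4 and 5 were the ends of the Chga and Chgb values.

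**Figure D4:**
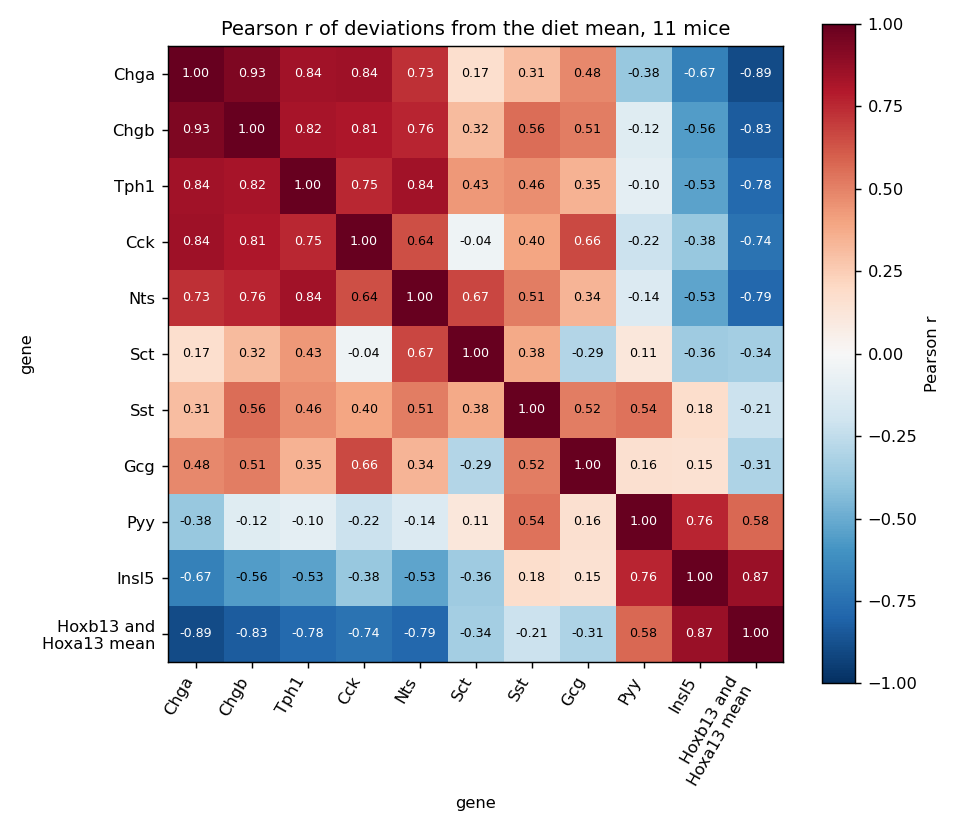
Pearson r between genes over the 11 mice, from each mouse's deviation from its diet's mean; red is positive, blue negative, and the last row and column are the mean of Hoxb13 and Hoxa13. Chga, Chgb, Tph1, Cck and Nts form a red block with r from 0.64 to 0.93, and Insl5 and Pyy lie with the Hox genes.

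The homeobox genes Hoxb13 and Hoxa13 mark the distal end of the colon, and their level moved with several of these hormones. Their mean was 9.27, 9.17, 9.40, 8.79 and 9.40 in controls 1 to 5 and 8.52, 8.34, 8.99, 7.67, 9.11 and 9.38 in inulin mice 1 to 6. Inulin 4, lowest in the Hox genes, was highest in Cck, Nts, Chga, Chgb and Tph1 and lowest in Insl5 and Pyy. Over deviations from the diet means, r with the Hox mean was 0.87 for Insl5 (Spearman's rho 0.78) and 0.58 for Pyy (rho 0.49), and it was -0.89 for Chga (rho -0.82), -0.79 for Nts (rho -0.75), -0.78 for Tph1 (rho -0.87) and -0.74 for Cck (rho -0.72). Without inulin 4 and 6, the mice farthest from the median of the Hox deviations, r was 0.52 for Insl5, 0.29 for Pyy, -0.67 for Chga, -0.60 for Nts, -0.57 for Tph1 and -0.64 for Cck. For Chgb it was -0.83 (rho -0.74, and -0.58 without those mice). For Gcg, Sst and Sct r was -0.31, -0.21 and -0.34, and without those mice -0.54, -0.47 and -0.02.

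With the Hox mean as a covariate, Cck differed by 0.48 ± 0.081 (SE), with a limma adjusted p of 0.0501, just outside the threshold. Chga and Tph1 each differed by -0.25 in that fit and Chgb by -0.20 (adjusted p 0.26, 0.36 and 0.36). Hoxb13 and Hoxa13 were themselves lower under inulin, by -0.62 ± 0.28 (SE) and -0.46 ± 0.26 (SE), without passing (limma adjusted p 0.365 and 0.477). Diet and this covariate therefore overlap in every fit that uses it. Hoxd10 and Hoxd11, further homeobox genes of the distal colon, also differed between the diets, by -1.50 and -1.45 (adjusted p 0.055 each). With Hoxd10, Hoxd11 and Hoxd12 as a covariate, also chosen after seeing the data, Cck differed by 0.56 ± 0.18 (SE) and Nts by 0.31 ± 0.40 (SE). Neither passed (adjusted p 0.92 and 0.99), but 0 of all genes passed in that fit, so it could not single out these 2. Without a covariate the SE was 0.091 for Cck and 0.22 for Nts. The part of colon position in these differences was not tested beyond these fits.

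**Figure D5:**
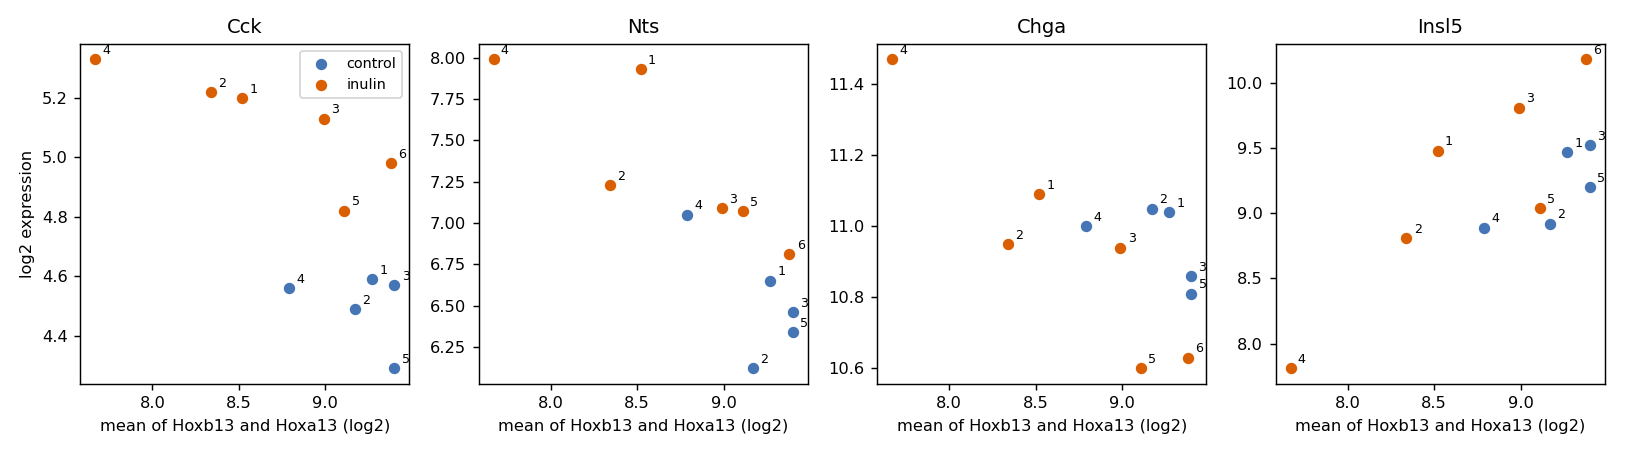
Log2 expression of Cck, Nts, Chga and Insl5 (vertical axes, scaled separately) against the mean log2 level of Hoxb13 and Hoxa13 (horizontal axis) in each mouse, control in blue and inulin in orange, numbered by mouse. Inulin 4, at a Hox mean of 7.67, is highest in Cck, Nts and Chga and lowest in Insl5; Cck of every inulin mouse lies above every control.

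The tissue held the markers its label names. The mean of 10 colonic epithelium markers was between 11.74 and 11.87 in control and between 11.62 and 12.02 under inulin. The enteroendocrine regulator Neurod1 ran from 6.03 to 6.30 in control and from 5.58 (inulin 5) to 6.65 (inulin 4) under inulin. Enteric neurons make some of the same peptides, and their 12 measured markers (of 15) had means from 4.24 to 4.41 in control and 4.24 to 4.35 under inulin. Elavl4 was at most 3.20 in any mouse, below the arrays' lower quartiles, but only 3 of the 12 had both means below the lower quartile. Chat and Nos1, with the smallest p of the list, differed by -0.29 ± 0.081 (SE) and 0.16 ± 0.069 (SE), with limma adjusted p of 0.17 and 0.33. With the neuron markers as a covariate Cck differed by 0.61 and passed (limma adjusted p 0.034). Small intestinal markers had means from 6.46 to 6.85 in control and 6.42 to 6.94 under inulin. The gene of sucrase-isomaltase, Sis, ran from 7.48 to 7.86 in control and from 7.15 to 9.15 under inulin, highest in inulin 4. Slc10a2, with the smallest p of that list, ran from 9.14 to 9.67 in control and from 9.49 to 10.44 under inulin. It differed by 0.69 ± 0.16 (SE), with a limma adjusted p of 0.11. Fat cell markers (9 measured of 10) were from 5.37 to 6.07 in control and 5.62 to 8.50 under inulin, highest in inulin 5, 4 and 2, and Adipoq reached 8.60 in inulin 5. None of the marker lists for islets, exocrine pancreas, enteric neurons, small intestine, colonic epithelium, fat cells or the distal colon had a gene past the threshold; at an unadjusted p under 0.05 there were 0 of 9, 5 of 12, 2 of 12, 1 of 8, 1 of 10, 8 of 9 and 4 of 5, against 13.5% of all genes. Of the 5 exocrine pancreas genes, Ctrb1, Cpa1 and Cpb1 were higher under inulin and Clps and Sycn lower. Their median differences were 0.08, 1.43, 0.01, 0.03, 0.02, 1.36 and -0.69. The part of fat, pancreas and small intestinal RNA in the hormone differences was not tested beyond the covariate fits given here.

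Outside the 10 genes, other gut peptides and neuropeptides did not pass in limma: 0 of 11 did (3 at an unadjusted p under 0.05), with a median difference of 0.08. The smallest p-values were those of Cartpt and Npy, neuropeptide genes, at differences of 0.13 ± 0.054 (SE) and 0.19 ± 0.082 (SE), each with a limma adjusted p of 0.33. Prohormone processing and granule genes had 0 of 20 past the threshold in limma (21 listed; 2 at an unadjusted p under 0.05) and a median of -0.04. The granule priming factor Cadps and the carboxypeptidase Cpe, which trims hormone precursors, differed by -0.30 and -0.10 (adjusted p 0.33 and 0.37). The precursor-cutting enzyme gene Pcsk1 differed by 0.18 (adjusted p 0.62).

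Serotonin genes besides Tph1 had 0 of 14 past the threshold in limma (3 at an unadjusted p under 0.05) and a median of 0.005. Maoa, which breaks serotonin down, differed by 0.17 ± 0.058 (SE) and the receptor gene Htr4 by -0.39 ± 0.15 (SE), with adjusted p of 0.22 and 0.30. Of the receptors for the products of these 10 genes 0 of 20 passed in limma (2 at an unadjusted p under 0.05; median difference 0.06), and 7 had both means below the arrays' lower quartile. Ntsr1, the main neurotensin receptor, was among these: it differed by 0.21 ± 0.060 (SE), from 3.19 to 3.48 in control and from 3.49 to 3.67 under inulin (adjusted p 0.17). Npy1r, a receptor for peptide YY and neuropeptide Y, differed by -0.67 ± 0.21 (SE), with an adjusted p of 0.21.

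Genes by which enteroendocrine cells sense their surroundings had 0 of 14 past the threshold in limma (15 listed; 3 at an unadjusted p under 0.05), with a median of 0.08. Piezo2, a touch-activated channel of serotonin-making cells, was between 5.72 and 5.89 in control and between 4.68 and 5.70 under inulin, lower in every inulin mouse, with a difference of -0.63 ± 0.17 (SE) and an adjusted p of 0.14. Casr, the calcium-sensing receptor, differed by 0.29 ± 0.089 (SE), with an adjusted p of 0.19. The long-chain fatty acid receptor Ffar4 differed by 0.29 (adjusted p 0.39).

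Among transcription factors of the lineage 1 of 15 measured (18 listed) passed: St18 fell by 0.46 on the log2 scale (SE 0.068, limma adjusted p 0.025). It ran from 5.90 to 6.03 in control and from 5.26 to 5.66 under inulin. Over all genes 0.0903% passed, 0.0372% as lower, and the list was chosen with earlier results of these data known. The mean was higher under inulin in 3 of the 15 and lower in 12, against 51.4% of all genes higher. The median difference was -0.06. Foxa2, another factor of the list, differed by -0.26 (adjusted p 0.52). Neurod1, Insm1 and Pax6 differed by -0.03, -0.02 and -0.07, with adjusted p of 0.96, 0.97 and 0.79.

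The genes most like Cck over the deviations of the 11 mice, leaving out the 10 genes, predicted genes and small RNAs, were Bmp7 (r = 0.944), Ide (0.942), Triap1 (0.941), Amot (0.940) and Nomo1 (0.939). None of these 5 passed the test between diets, their differences running from -0.24 to 0.25. Most like Nts were Fgfrl1 (r = 0.927), Cnnm1 (0.922), Slc10a2 (0.921), Eif4ebp1 (0.914) and Cd226 (0.899). Slc10a2, the bile acid importer of ileal cells and one of the small intestinal markers above, differed between the diets by 0.69 ± 0.16 (SE), with an adjusted p of 0.11. These are the highest values out of all genes over 11 mice and are given as a description.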

How the data were processed

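RNA from colonic scrapings of 11 mice was measured on single-colour arrays. The deposited values are on a log2 scale, as their range shows, and RMA (robust multi-array average) is the tool that the submitters' processing notes name. Its version and how probes were joined into sets are not stated there. RMA makes arrays alike and so hides shifts shared by most genes. Scanner intensities were not used here.

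Of 35556 probe sets 21218 had 1 gene symbol in the platform annotation, 1881 had several and 12457 none. Where a gene had several probe sets, the one with the highest mean was used, giving 18820 genes. Groups came from the sample titles. Differences (inulin minus control, 11 mice, no covariate) were tested in 1 fit with limma 3.58.1 in R 4.3.3 (lmFit, eBayes), adjusted over all genes by Benjamini-Hochberg; genes under 0.05 passed. Folds were taken back from the log2 differences. The exact permutation test used all divisions of the mice into 5 and 6; its smallest p is 0.0022. The labels give separate mice, and the number of arrays limits the precision.

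On simulated data with the spreads of the 18820 genes, the inulin against control fit recovered 76% of 50 genes changed by 0.5 and 96% of those changed by 1 on the log2 scale. The simulation also held 50 genes changed by 1.5 and 50 changed by 2, with noise drawn separately for each gene. So many changed genes make the adjusted threshold easier to reach than in the data, where 17 genes passed. The shares recovered therefore do not carry over to these data.

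Named genes are the 10 genes, those past the threshold and the leading 2 in each list, defining markers, and the 5 most like Cck and Nts. Some of the leading 2 in the marker lists were not described above. These were Slc30a8 (islets), Alpi (small intestine), Krt20 and Car1 (colonic epithelium), and Cidec and Fabp4 (fat cells), and none passed. Pcsk1, Ffar4, Neurod1, Insm1, Pax6 and further markers were named after their values were seen. The 10 genes, lists and most alternatives were chosen with earlier results of these data known.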

Additional observations from a re-analysis of the deposited data

Results flagged for a closer look

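The 5 control and 6 inulin values of each of the 10 genes, 20 groups in all, were searched for a mouse far from the others of its diet. 1 group held one: Gcg in inulin 5, at 8.80, was lowest, and its gap to the next mouse (9.59) was 0.668 of the group's range. Chance alone flags about 1 group in 20. The same mouse was lowest of all 11 in Chga (10.60) and Chgb (9.32) and highest in the fat cell markers, with a mean of 8.50. The part of these in its Gcg value was not tested.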

How the results depend on the processing

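Each result was recomputed under up to 29 alternatives, 3 of them chosen after seeing the data (the Chga and Chgb covariate, the Hoxd covariate, and leaving out inulin 4 and 5). Cck differed by 0.48 to 0.67 in the 28 that could give it and passed in 15. It did not pass with quantile normalisation (0.59), an unmoderated test allowing unequal variances (0.61), or covariates for pancreas markers (0.63), Hoxb13 and Hoxa13 (0.48), fat cell markers (0.61) and Hoxd10, Hoxd11 and Hoxd12 (0.56). Leaving out 1 mouse gave 0.56 to 0.67. Without probe sets below the 40th percentile Cck was not tested. The cause of these losses was not tested. The number of the 10 genes past the threshold, 1, ran from 0 to 2 on leaving out 1 mouse. The count over all genes moved too, from 17 to between 7 and 98 in those fits. The number was 0 without the probe sets below that percentile (51 of all genes passed) and with quantile normalisation (21) or the unmoderated test (0). It was also 0 with the covariates for pancreas markers (8), Hoxb13 and Hoxa13 (22), fat cell markers (45) and the Hoxd genes (0). It was 2 with array weights (245 of all genes), the replicate block (95) and the Chga and Chgb covariate (96). It was also 2 without inulin 3, 4 and 5 (33) and without inulin 4 and 5 (91). Of 259 values for the other 9 genes 253 kept their side of the threshold, and 6 crossed to pass (4 of Gcg, 2 of Nts). All differences of Cck, Nts, Gcg, Sst and Sct stayed above 0.

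For same-numbered mice of the diets the labels give no link beyond the number, and they do not exclude one. The deviations of same-numbered mice correlated at 0.063, 0.076, 0.151, 0.221 and -0.104, and 2 of 5 controls correlated best with their own number. With the replicate block 95 genes passed in place of 17; Cck differed by 0.64 and Nts by 0.94 (adjusted p 0.015).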

Other observations

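The 10 genes varied more between inulin mice than between control mice. The SD was larger under inulin in 10 of the 10 genes, from Pyy (0.18 against 0.17) to Chgb (0.28 against 0.010), whereas 67.6% of all genes had the larger SD under inulin. The median ratio of the SDs was 2.08 for the 10 genes and 1.30 for all genes. Without inulin 4 and 5, which held the ends of Chga and Chgb, it was larger in 8 of the 10 genes, against 52.1% of all genes. The groups also differ in size and the ratios were not tested.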
